A study of Mus musculus with 8 samples.

Results

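Processed pseudogenes are copies of messenger RNAs that were reverse transcribed and inserted into the genome. The rows annotated as processed_pseudogene in the deposited transcript table made up 1882 of its 74764 transcripts, and each was the single transcript of its own gene. Of these, 277 carried a name with the suffix -ps, which ties them to a parent gene by name, and 119 of the 277 were copies of ribosomal protein genes (symbols beginning Rpl or Rps). The other 1763 processed pseudogenes were set against these 119. A further 1578 of the 1882 had only a Gm number as their name.

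The libraries were made from the hippocampus of wild-type C57BL/6 KP mice that were treated at postnatal day 40, under anesthesia and through the nose. In 4 libraries the mice had received KU55933, an inhibitor of the DNA damage kinase ATM, at 7.5 mg/kg, and in 4 libraries they had received the vehicle, 4% DMSO in saline. The vehicle's own label also carries the 7.5 mg/kg figure, the drug is written U55933 in one place, and the text on library input names hypothalamus and prefrontal cortex. These points could not be settled from the labels. Nothing in the labels beyond n = 4 says that each library is a separate mouse, so p-values measure the spread between these libraries.

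A processed pseudogene keeps the exons of its parent joined together, without introns and usually without the parent's promoter, and many carry mutations that break the reading frame. Genes with abundant messages in the germ line, such as those of ribosomal proteins, glycolytic enzymes and chromatin proteins, have left many copies in mammalian genomes. Because copy and parent can be identical over the length of a sequencing read, a read from one may fit both, and software such as Salmon divides such reads among the candidate transcripts by estimation.

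The sequences show how little separates some copies from their parents. The stretches printed here come from transcripts of GENCODE mouse release 21, matched by transcript identifier, and lie in the coding sequence of the parent. They are shown because their pairs carry the rises described further on. Rps13-ps2 and Rps13 are identical over all 453 bases of the pseudogene, Rpl15-ps3 and Rpl15 over all 615, and Rpl31-ps8 and Rpl31 over all 378, so a single stretch of 60 bases stands for both members of each pair, with the parent's start codon in capitals.
Rps13-ps2 and Rps13: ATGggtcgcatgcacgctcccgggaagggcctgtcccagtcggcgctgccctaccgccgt
Rpl15-ps3 and Rpl15: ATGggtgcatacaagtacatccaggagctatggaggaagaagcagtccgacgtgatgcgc
Rpl31-ps8 and Rpl31: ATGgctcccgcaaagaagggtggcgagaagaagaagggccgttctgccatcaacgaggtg

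Rpl14-ps1 is a contrasting case, with bases that tell the copy from its parent. It differed from Rpl14 at 4 positions of 653, written with the parent's base first and counted from the 5′ end of the pseudogene as C420T, A423G, C566T and A567G, and it lacked 3 bases that the parent has. The stretch from position 522 to 611 holds 2 of these differences, in capitals.
Rpl14-ps1: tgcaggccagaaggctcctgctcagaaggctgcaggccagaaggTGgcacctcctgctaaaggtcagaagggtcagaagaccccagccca
Rpl14: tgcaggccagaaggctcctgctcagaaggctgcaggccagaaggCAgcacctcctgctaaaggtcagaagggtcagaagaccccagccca

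Over the whole class, 1877 of the 1882 processed pseudogenes had a sequence in that release, with a median length of 745 bases and a median GC content of 49.1%. A closest protein-coding transcript was found by alignment for 1816 of them, at a median identity of 96.2%. For the 254 with a parent in the table by name, the closest coding gene was the named parent in 247. The sequence of 49 pseudogenes was contained whole, without a single difference, in a coding transcript, and 34 of the 49 began at that transcript's start codon. To measure how far a pseudogene can be told apart, each was cut into overlapping stretches of 31 bases on the transcript strand, and those found in no other transcript of the table were counted. The median share of such unique stretches was 47.4%, and 61 pseudogenes had none. Ribosomal protein pseudogenes stood lower, with a median unique share of 19.96% against 49.5% for the other processed pseudogenes. By position on the GRCm38 build of that release, 1283 lay outside any coding gene, 335 within an intron of a coding gene on the same strand, 243 opposite one and 16 over a same-strand exon.

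The libraries held 40586998 to 46630341 estimated counts in vehicle and 34190440 to 37499003 in KU55933, so vehicle totals were 1.19 times larger on average. Summed levels of 10 hippocampal neuron markers ran from 1131 to 1194 CPM (counts scaled to library size) in vehicle and from 985 to 1058 in KU55933, with 4 of the 10 called lower. Those of 10 choroid plexus markers ran from 58.7 to 119.8 CPM in vehicle, and were 1200 and 1278 CPM in KU55933 libraries 1 and 2 against 81.2 and 66.0 in libraries 3 and 4. Of these 10 choroid plexus markers 1 was called higher and 0 lower. Summed levels of 10 markers of thalamic and subcortical neurons ran from 205 to 376 CPM in vehicle and 339 to 413 in KU55933, with 3 of the 10 called higher. Over all genes tested, edgeR called 6.92% higher and 14.6% lower. Across all tested transcripts the change fell with GC content, and among those of 55% GC or more the median log2 change was -0.52 and 17.1% were lower. The part of these features in the results on pseudogenes was not tested, except where values without a library or with a GC correction are given.

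Processed pseudogenes together took 0.142% ± 0.00334 of all estimated counts in vehicle and 0.163% ± 0.00691 in KU55933 (mean ± SD, n = 4). The 4 vehicle libraries stood at 0.142, 0.143, 0.138 and 0.146%, and the 4 KU55933 libraries at 0.165, 0.157, 0.159 and 0.172%. Every KU55933 library was above every vehicle library, a ratio of 1.15 between the means. Ribosomal protein pseudogenes had shares of 0.0384% ± 0.00185 and 0.0440% ± 0.00340, and their groups overlapped, with vehicle library 2 at 0.0407% and KU55933 library 2 at 0.0399%. The other processed pseudogenes stood at 0.104% ± 0.00287 and 0.119% ± 0.00384, without overlap. Since these are bulk samples, fewer cells of a type and less RNA per cell cannot be told apart. At the same time fewer of the pseudogenes had any count in KU55933, 1292 to 1380 of 1882 against 1377 to 1436 in the deeper vehicle libraries, so the detection ranges overlapped narrowly and depth differed with group.

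Each transcript was tested with edgeR's quasi-likelihood test over all 45343 transcripts that passed a filter on low counts, and calls were made at a Benjamini-Hochberg adjusted p under 0.05. Of the 1882 processed pseudogenes, 424 passed the filter, and 1458, among them 5 with no count in any library, were not tested. The tested ones held 94.2% of pseudogene counts in vehicle, and 6 of them alone held 35.8%. A transcript could pass the filter through KU55933 alone, as 2 pseudogenes with 0 counts in all vehicle libraries did.

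Among the tested processed pseudogenes, 10 were higher in KU55933 and 2 were lower. That is 2.36% higher and 0.472% lower, where the background over all transcripts tested was 1.06% higher and 5.70% lower. The median log2 change was 0.12 over the tested pseudogenes and -0.07 over all tested transcripts. Counting only whether the 4 libraries of one group all lay beyond the 4 of the other, 31 pseudogenes (7.31%) were higher without overlap and 14 (3.30%) lower, against 4.84% and 12.3% of all transcripts. Without KU55933 libraries 1 and 2, which had the high choroid plexus markers, 3 were higher and 2 lower. The count of higher calls was 4 without vehicle 3 and 5 without vehicle 4, KU55933 1, KU55933 2 or KU55933 3, each left out alone. For these and later counts with libraries left out, the share of all transcripts called in the same fit is not given. A smaller count there cannot be told apart from fewer calls over all transcripts.

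Ribosomal protein pseudogenes and the rest gave the same number of higher calls from very different numbers tested. Of 119 ribosomal protein pseudogenes 45 were tested, of which 5 were higher and 0 lower by edgeR, with a median log2 change of 0.07. Over all tested transcripts edgeR called 1.06% higher and 5.70% lower. Of the 5, Rps13-ps2 passed the filter on low counts through KU55933 alone, as Gm15429 did among the higher ones of the rest. At an unadjusted p under 0.05 there were 6 higher and 3 lower among the 45, where 6.41% of all tested transcripts were higher and 14.0% lower at that threshold. DESeq2, which tested 69 ribosomal protein pseudogenes and called 3.22% of all transcripts higher and 6.97% lower, called 5 of them higher and 1 lower. With any single library except KU55933 4 left out, edgeR called only 2 or 3 of them higher. Of the 1763 others 379 were tested, with 5 higher, 2 lower and a median of 0.12. Their higher count was 2 without vehicle 3 or KU55933 2 and 3 without vehicle 4, KU55933 1 or KU55933 3. Between the lower and the upper quartile the log2 changes spanned -0.09 to 0.27 for ribosomal protein pseudogenes, -0.22 to 0.36 for the others and -0.47 to 0.21 for all transcripts. The difference between the classes of pseudogene was not tested.

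**Figure D1:**
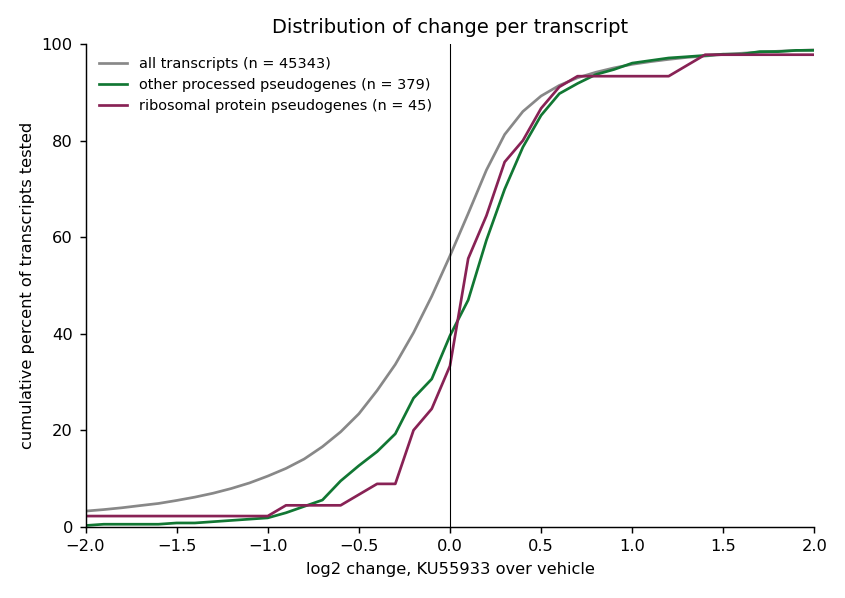
Cumulative percent of tested transcripts (vertical axis) at or below each log2 change of KU55933 over vehicle (horizontal axis), for 45 ribosomal protein pseudogenes, 379 other processed pseudogenes and all 45343 tested transcripts. At a change of 0 the lines stand at 33.3, 39.6 and 56.1% in that order, and both pseudogene lines stay to the right of the line for all transcripts from there to a change of 0.6.

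The class of all pseudogenes closest to a cytosolic ribosomal protein gene by sequence was wider than the -ps names show. It held 450 members, 117 of them with an Rpl or Rps -ps name, and of its 125 tested members 6 were higher and 0 lower by edgeR, with a median log2 change of 0.09. Among the 6 is Rps13-ps2, which passed the filter on low counts through KU55933 alone. At an unadjusted p under 0.05 there were 10 higher and 4 lower among the 125, against 6.41% and 14.0% of all tested transcripts, and DESeq2 called 6 and 0. The genes with the most copies in the table are given next, beside edgeR calls of 1.06% higher and 5.70% lower over all tested transcripts. Gapdh, the glycolytic enzyme glyceraldehyde-3-phosphate dehydrogenase, was the closest coding gene of 81 pseudogenes, of which 41 were tested with log2 changes from -0.77 to 0.87, a median of -0.01 and no call. The chromatin protein gene Hmgb1 had 47, of which 9 were tested with a median of 0.06 and no call. Rps2 had 37, of which 14 were tested with a median of -0.08 and no call, and Hnrnpa3, encoding an RNA-binding protein, had 25, of which 10 were tested with all log2 changes between 0.06 and 0.59 and no call. Among the 8 coding genes with at least 25 closest pseudogenes, Rpl21 alone had one that was called.

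Rps13-ps2, the copy of the gene for small ribosomal subunit protein S13, had the largest rise. Its level was 0 in all 4 vehicle libraries and 20.9, 16.1, 10.5 and 18.8 CPM in the 4 KU55933 libraries. The groups did not overlap, and against a floor of 3 counts per library the level in KU55933 was at least 227-fold higher (adjusted p = 0.00150 by edgeR). The floor covers counting error only. Another copy of the same parent, Rps13-ps1, was not tested and was picked out after its values were seen. It had 117, 0, 0 and 107 counts in vehicle and 5, 2, 14 and 0 in KU55933. How reads were divided among these copies and Rps13 was not tested. Rps13-ps2 lies at chr7:88530446-88530898 on the minus strand of GRCm38, outside any coding gene.

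Rpl14-ps1, whose parent encodes a protein of the large subunit, stood at 10.3, 11.2, 9.75 and 11.8 CPM in vehicle. In KU55933 it stood at 23.3, 29.7, 19.4 and 30.8 CPM, every library above every vehicle library. The log2 change was 1.26 ± 0.16 (SE, adjusted p = 0.00521 by edgeR). It lies opposite the coding gene Trpm4, at chr7:45324965-45325617 on the plus strand, and 14.6% of its 31-base stretches were unique.

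Rpl15-ps3 was at 6.66, 10.7, 6.96 and 10.2 CPM in vehicle and at 32.8, 25.4, 21.4 and 10.3 CPM in KU55933. KU55933 library 4 lay among the vehicle libraries, so the groups overlapped. The log2 change was 1.38 ± 0.34, with an adjusted p of 0.0498 by edgeR that rose to as much as 0.149 when single libraries were left out, and passed only without KU55933 4. It lies outside any coding gene at chr9:22185607-22186221 on the minus strand.

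Rpl27-ps3 and Rpl31-ps8, copies of genes for other large subunit proteins, rose by less. Rpl27-ps3 went from 18.2, 23.4, 21.3 and 24.2 CPM in vehicle to 32.9, 27.9, 30.9 and 35.9 CPM (log2 change 0.55 ± 0.12, adjusted p = 0.0329 by edgeR). Rpl31-ps8 went from 27.6, 27.4, 24.0 and 26.0 CPM to 39.3, 34.1, 35.4 and 33.9 CPM (log2 change 0.44 ± 0.09, adjusted p = 0.0210). In both, every KU55933 library was above every vehicle library. The Rpl27-ps3 call was lost without any one of 7 of the 8 libraries, all but KU55933 2, and the Rpl31-ps8 call without vehicle 3, vehicle 4, KU55933 1, KU55933 2 or KU55933 3, with adjusted p up to 0.104 and 0.0754.

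Rps7-ps3, a copy of the gene for small subunit protein S7, is annotated as a transcribed processed pseudogene and so is not among the 1882. It rose from 2.29 ± 0.343 to 24.1 ± 10.6 CPM (SD, n = 4; log2 change 3.39 ± 0.35 SE, adjusted p = 0.00291 by edgeR).

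Outside the ribosomal protein names, Gm15429 was the other pseudogene that was at 0 in every vehicle library. It is identical over its whole 798 bases to a transcript of Aph1a, a subunit of the gamma-secretase complex. In KU55933 it stood at 4.66, 4.27, 3.87 and 0.765 CPM, at least 46-fold above the floor of 3 counts per library (adjusted p = 0.00949 by edgeR). KU55933 library 4 was the lowest of its group by a wide margin.

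Kansl2-ps, a copy of the gene for a subunit of a histone acetyltransferase complex, was at 0.342, 0.127, 0.586 and 0.582 CPM in vehicle and at 2.80, 1.67, 0.881 and 3.93 CPM in KU55933. The groups did not overlap, although KU55933 library 3 was close to the highest vehicle libraries. The log2 change was 2.49 ± 0.60 (adjusted p = 0.0454 by edgeR). The call was lost when any single library except KU55933 3 was left out, with adjusted p up to 0.101. It differed from its parent at 2 positions of 1461, and one of them, C1123T, turned a codon cag of the parent's reading frame into the stop codon tag.

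The remaining 3 rises were copies known by Gm numbers. Gm10123 is identical to part of Ppia, the gene for cyclophilin A, and was the most abundant processed pseudogene, with 179, 172, 170.0 and 163 CPM in vehicle and 281, 224, 221 and 238 CPM in KU55933. Its log2 change was 0.50 ± 0.09 (adjusted p = 0.0151 by edgeR), without overlap, and the call was lost without vehicle 3 or vehicle 4 (adjusted p up to 0.0575). Gm12338, identical to part of the respiratory chain gene Cox7c, was at 3.72, 3.14, 4.25 and 4.66 CPM and then at 10.2, 9.42, 8.49 and 5.30 CPM (log2 change 1.08 ± 0.24, adjusted p = 0.0314).

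Gm12338 lost its call without any single library except KU55933 4, with adjusted p up to 0.0962. Gm10163, which is 99.58% identical to Rpl21, was at 9.45, 6.42, 7.18 and 8.27 CPM in vehicle and at 14.0, 12.9, 12.4 and 10.3 CPM in KU55933 (log2 change 0.66 ± 0.16, adjusted p = 0.0485 by edgeR). The groups did not overlap in either. The Gm10163 call was lost without vehicle 2, vehicle 3, vehicle 4, KU55933 1, KU55933 2 or KU55933 3, with adjusted p up to 0.149. Both lie opposite a coding gene, Gm12338 opposite Pitpna and Gm10163 opposite Snx14. The library kit keeps strand, but whether the authors' counting used it is not given in the sources used here, so reads of these genes and of their hosts may not be told apart.

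The 2 pseudogenes that fell were both rich in GC. Oaz1-ps, a copy of the gene for ornithine decarboxylase antizyme, which limits polyamine synthesis, had 59.7% GC. It was at 48.7, 57.3, 54.8 and 49.7 CPM in vehicle and at 19.3, 17.6, 25.7 and 24.97 CPM in KU55933, without overlap (log2 change -1.27 ± 0.14, adjusted p = 0.00338 by edgeR). Against the 1 Oaz1 transcript aligned with it, Oaz1-ps had 1 substitution, G125C, and 1 extra base after position 204 in its 685. Whether other Oaz1 transcripts hold that base was not tested. Pabpc1l2b, named for its likeness to poly(A)-binding proteins, had 60.7% GC and was at 17.7, 15.04, 16.6 and 16.6 CPM and then at 7.52, 6.24, 8.89 and 8.09 CPM (log2 change -1.10 ± 0.14, adjusted p = 0.00469). All of its 31-base stretches were unique, and its closest coding transcript, of Pabpc4, was only 77.35% identical.

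**Figure D2:**
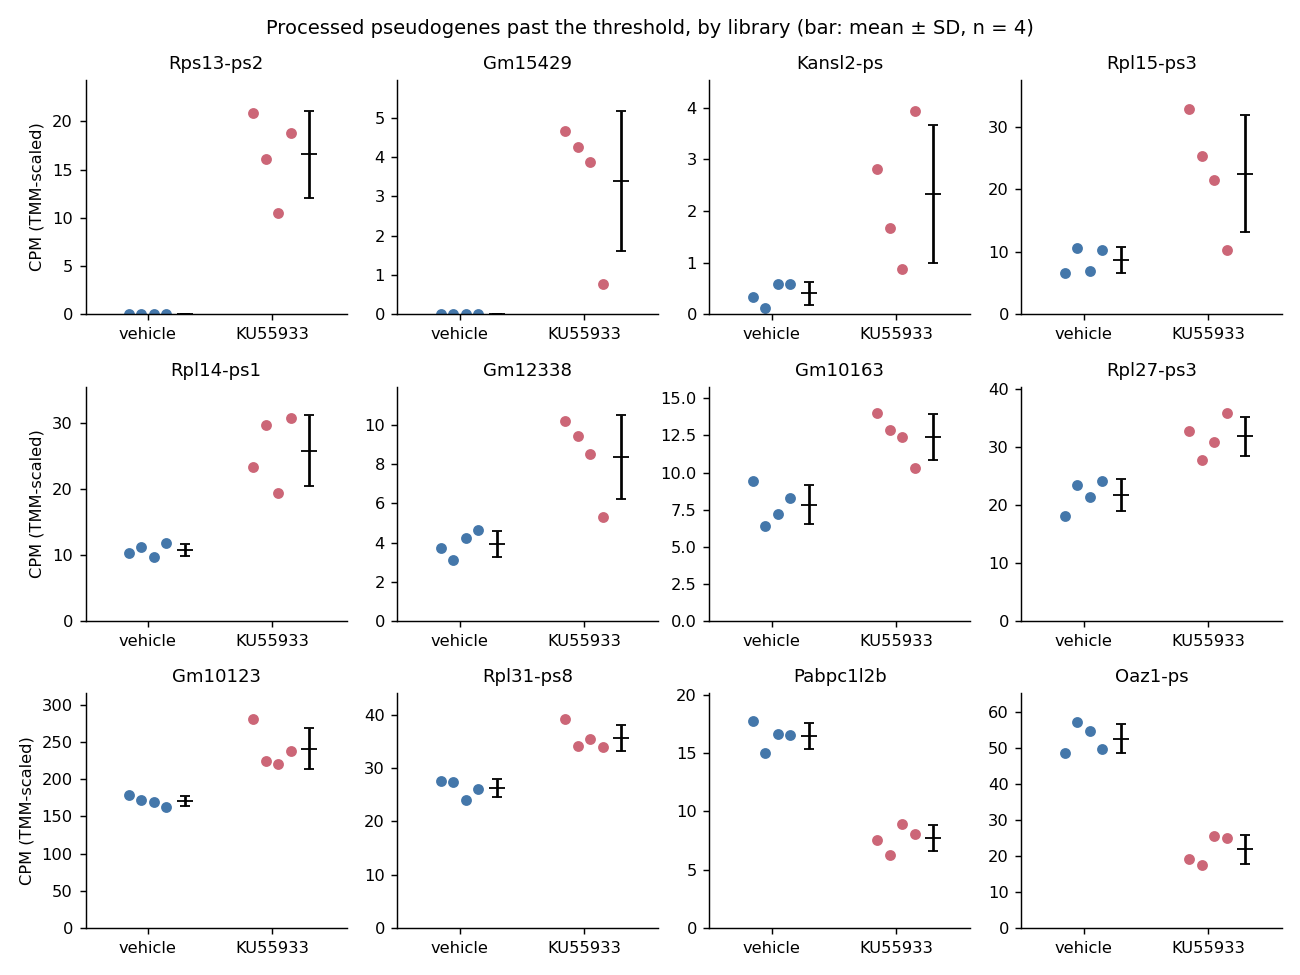
Level of each of the 12 called processed pseudogenes in CPM (vertical axis, from 0) in the 4 vehicle and 4 KU55933 libraries, with points for libraries and bars for the mean ± SD (n = 4). The groups are apart in 11 panels, and in Rpl15-ps3 the lowest KU55933 point, 10.3 CPM, lies among the vehicle points.

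Of these 12 calls, 5 held in every fit that left out a single library: Rps13-ps2, Gm15429, Rpl14-ps1, Oaz1-ps and Pabpc1l2b. With an offset that removed the trends of each library on GC content and length, 3 held, Rps13-ps2 (adjusted p = 0.00278 by edgeR), Rpl14-ps1 (0.00983) and Gm15429 (0.0263). Rps13-ps2 and Gm15429 had passed the filter on low counts through KU55933 alone, the group where they are high. In that fit Oaz1-ps had a log2 change of -0.41 ± 0.12 (adjusted p = 0.156) and Pabpc1l2b one of -0.08 ± 0.17 (adjusted p = 0.891). The offset moved the median log2 change of all tested transcripts from -0.07 to 0.06 and that of the tested pseudogenes from 0.12 to 0.16, and it called 1.05% of all transcripts higher and 1.01% lower.

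The most abundant pseudogenes after Gm10123 were not called. Rps12-ps3 was at 109, 113, 100.4 and 92.3 CPM in vehicle and at 79.8, 54.4, 82.2 and 87.5 CPM in KU55933, without overlap (log2 change -0.45 ± 0.15, adjusted p = 0.128 by edgeR). Gm7536, identical to part of Rpl27a, had means of 65.1 ± 2.92 and 54.0 ± 4.48 CPM (SD, n = 4; log2 change -0.27, adjusted p = 0.0967), also without overlap. Rps23-ps1 had means of 80.8 ± 4.67 and 90.2 ± 7.89 CPM, Tpt1-ps3, a copy of the gene for translationally controlled tumor protein, 55.5 ± 11.5 and 71.9 ± 8.40 CPM, and Rpl10a-ps1 44.1 ± 3.71 and 46.3 ± 7.11 CPM, each with overlapping groups.

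Most calls lay among pseudogenes with little sequence of their own, Pabpc1l2b being an exception. Of the 12, 7 were contained whole in a coding transcript and 8 had no unique 31-base stretch, and all 8 of these were higher. Rps13-ps2 and Gm15429, which are in both counts, had passed the filter on low counts through KU55933 alone. Over all tested transcripts edgeR called 1.06% higher and 5.70% lower, and 6.41% were higher and 14.0% lower at an unadjusted p under 0.05. DESeq2 called 3.22% of the transcripts it tested higher and 6.97% lower. Among the 42 tested pseudogenes that were contained whole, 7 were higher and 0 lower by edgeR, with a median log2 change of 0.36 (13 and 3 at an unadjusted p under 0.05, 9 and 0 by DESeq2). Among the 381 tested that were not, 3 were higher and 2 lower, with a median of 0.10. By unique stretches, the 49 tested with none had 8 higher and 0 lower (14 and 4 at an unadjusted p under 0.05, 10 and 0 by DESeq2) and a median of 0.31, the 279 with some but under 50% had 2 higher and 1 lower and a median of 0.14, and the 95 with 50% or more had 0 higher and 1 lower (0 and 2 at an unadjusted p under 0.05, 0 and 1 by DESeq2) and a median of -0.07. With the GC and length offset these medians were 0.21, 0.22 and -0.06, with 2, 1 and 0 higher and 0 lower in each. Those contained whole then had 2 higher, 0 lower and a median of 0.24. In both counts the 2 were Rps13-ps2 and Gm15429. That fit called 1.05% of all transcripts higher and 1.01% lower. These classes were drawn up with earlier results known, and the differences between them were not tested.

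**Figure D3:**
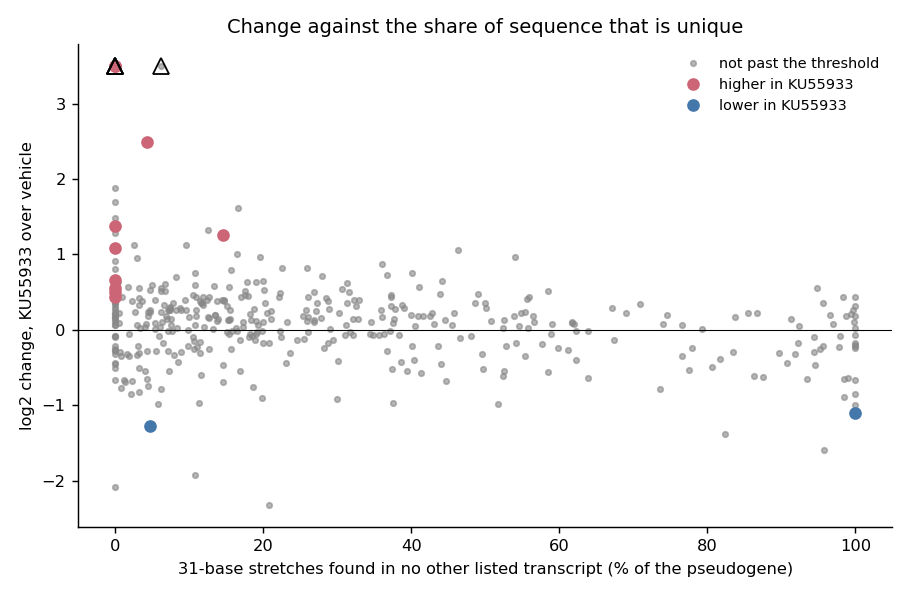
Log2 change of KU55933 over vehicle (vertical axis) against the percent of 31-base stretches of a pseudogene that no other listed transcript holds (horizontal axis), for the 423 tested processed pseudogenes with a sequence. Open triangles stand for values beyond the axis, drawn at its edge. The 10 higher pseudogenes lie between 0 and 14.6%, and the lower ones at 4.73% and 100%.

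Reads assigned to a pseudogene were next set against those assigned to its parent. A parent by name was in the table for 254 of the -ps pseudogenes, at a median identity of 98.7% over the 251 that aligned, and 81 of the 254 were tested, 45 of them ribosomal protein pairs. Per length, the pseudogene's share of pseudogene plus parent was under 5% in 58 of the 81 and over 50% in 5, with a median of 1.11%. In 43 of the 81 the pseudogene and its parent had log2 changes of opposite sign. The log2 ratio of pseudogene to parent was higher in every KU55933 library than in every vehicle library for 17 pairs and lower for 2, which is 19 of 81, where the same measure over all transcripts against the rest of their gene or family gave 6.65% higher and 7.39% lower.

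In the test of each transcript against its family with edgeR's diffSpliceDGE, where a family is a parent gene with its -ps pseudogenes, 5 pseudogenes were higher and 0 lower, against a background of 1.26% higher and 2.15% lower over 40163 transcripts. At an unadjusted p under 0.05 they were 6 and 3, and without vehicle 2 or KU55933 4 the higher count at the adjusted threshold was 3. For these counts the share over all transcripts is not given, so they cannot be set against a background. The 5 past the adjusted threshold were Rps13-ps2 (adjusted p = 8.44e-15), Rpl15-ps3 (0.00218), Rpl14-ps1 (0.00235), Kansl2-ps (0.00562) and Rpl27-ps3 (0.0361). Rps13-ps2 had passed the filter on low counts through KU55933 alone. On simulated counts the family test recovered 11.5% of 200 changed transcripts and called 49 unchanged ones, so a call by it may be false. The same comparison with limma on the log2 ratio in each library called 4 higher and 1 lower, where the background was 2.30% and 2.86%. These were Rps13-ps2, Rpl27-ps3 (log2 ratio change 1.57 ± 0.20, adjusted p = 0.00524 by limma), Rpl14-ps1 (1.53 ± 0.25, 0.0131) and Rpl10a-ps1 (0.75 ± 0.17, 0.0428), with Oaz1-ps lower (-0.90 ± 0.16, 0.0170).

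**Figure D4:**
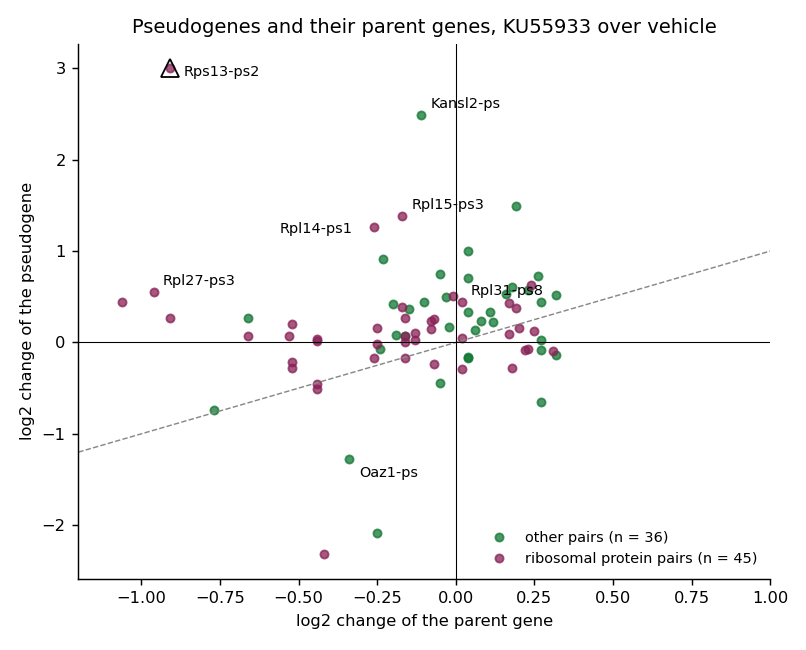
Log2 change of each tested pseudogene (vertical axis) against that of its parent gene (horizontal axis), KU55933 over vehicle, for 45 ribosomal protein pairs and 36 others, with names at the pseudogenes past the threshold. The dashed line marks equal change, and the open triangle marks Rps13-ps2, whose value lies beyond the axis, above a parent at -0.91.

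The pairs with called pseudogenes show the levels behind these ratios. Rps13 itself was at 80.0, 83.8, 90.2 and 84.6 CPM in vehicle and at 50.6, 40.6, 52.8 and 35.6 CPM in KU55933 (log2 change -0.91 ± 0.12, adjusted p = 0.000773 by edgeR per gene). With its 4 -ps pseudogenes added, the sum was at 83.2, 84.3, 90.1 and 87.2 CPM and then at 71.7, 58.4, 64.5 and 55.2 CPM (log2 change -0.46 ± 0.09, adjusted p = 0.00447). The parent and the sum were both lower in every KU55933 library, and the change of the sum was smaller. Per length, Rps13-ps2 held 0% of pseudogene plus parent in vehicle and 36.7% ± 9.34 in KU55933.

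Rpl27 was at 56.9, 58.3, 58.5 and 51.8 CPM in vehicle and at 30.6, 20.2, 32.0 and 32.8 CPM in KU55933, the reverse direction to Rpl27-ps3. Its log2 change was -0.96 ± 0.14 (adjusted p = 0.00125 by edgeR), and that of the family sum was -0.35 ± 0.10 (adjusted p = 0.0302). The per-length share of Rpl27-ps3 went from 36.3% ± 4.22 to 62.7% ± 3.64 (SD, n = 4; exact two-sided permutation p = 0.0286 for the ratio, the smallest that 70 arrangements allow). Rpl10a showed a like arrangement, with its own level lower (66.1 ± 5.79 to 41.9 ± 2.90 CPM, log2 change -0.66, adjusted p = 0.000769 by edgeR), Rpl10a-ps1 not past the threshold (log2 change 0.07), and the sum at -0.30 (adjusted p = 0.0295).

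For Rpl14, Rpl15, Rpl31 and Kansl2 neither the parent nor the family sum passed the threshold. Rpl14 had a log2 change of -0.26 ± 0.10 (adjusted p = 0.0776 by edgeR) and its family sum one of -0.07 ± 0.08 (adjusted p = 0.545). Rpl15 had -0.17 and its sum -0.04 (adjusted p = 0.219 and 0.775), Rpl31 0.02 and its sum 0.12 (0.876 and 0.296), and Kansl2 -0.11 and its sum -0.05 (0.261 and 0.641). Per length, Rpl14-ps1 went from 10.4% ± 0.952 to 25.4% ± 5.96 of the pair, and Rpl15-ps3 from 10.8% ± 2.35 to 26.3% ± 9.36.

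Oaz1 differed from these in that parent and pseudogene were both lower. Oaz1 was at 137, 154, 141 and 137 CPM in vehicle and at 116, 94.6, 118 and 121 CPM in KU55933 (log2 change -0.34 ± 0.09, adjusted p = 0.0211 by edgeR), and the family sum had a log2 change of -0.53 ± 0.09 (adjusted p = 0.00240). Oaz1-ps fell from 37.0% ± 1.22 to 23.9% ± 2.31 of the pair per length, without overlap (exact two-sided permutation p = 0.0286 for the ratio).

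**Figure D5:**
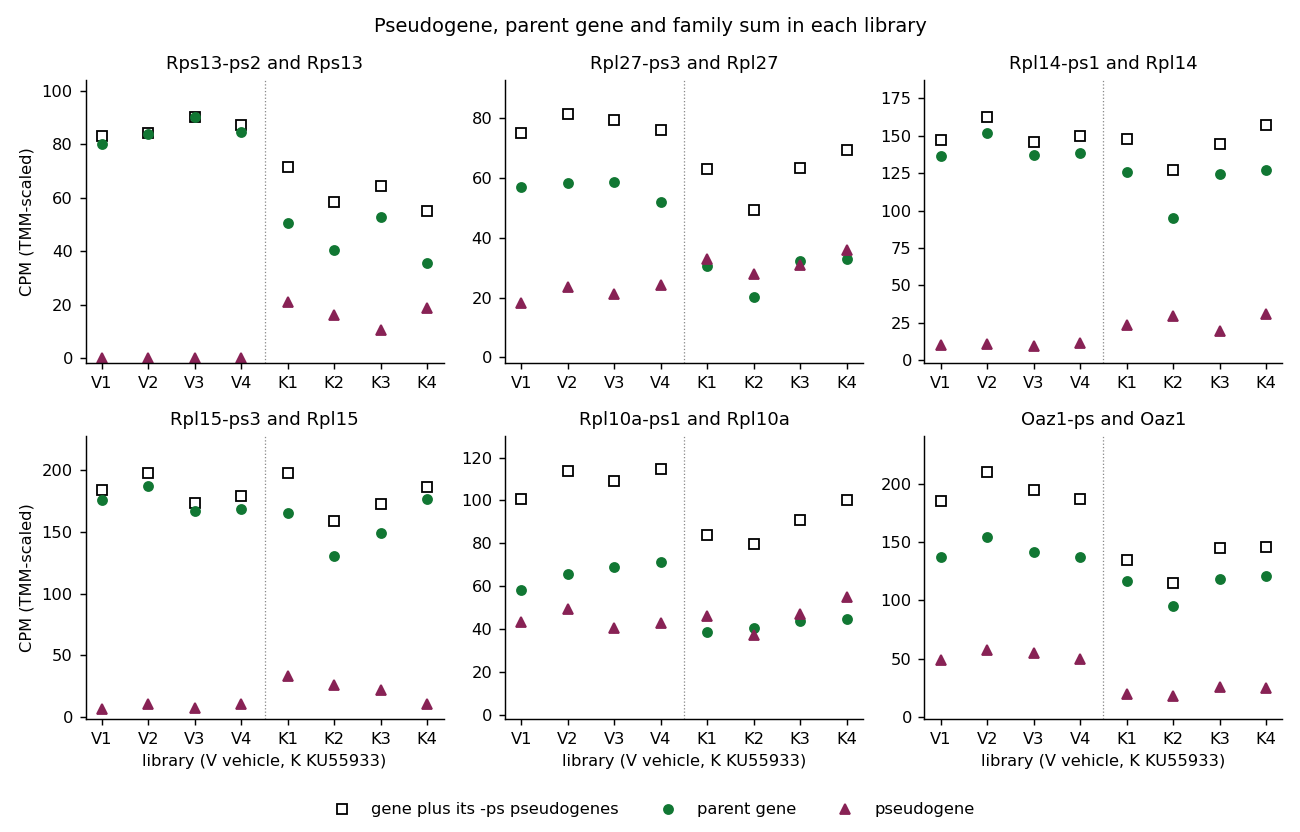
CPM (vertical axis) of a pseudogene, its parent gene and the gene with all its -ps pseudogenes added, in each of the 4 vehicle (V) and 4 KU55933 (K) libraries, for 6 families. Rps13-ps2 is at 0 in V1 to V4 while the Rps13 sum stays between 83.2 and 90.1 CPM, and in the Rpl27 and Rpl10a panels the parent points drop to about the level of the pseudogene in K1 to K4.

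For the called pseudogenes known only by Gm numbers, the counts of all pseudogenes closest to a coding gene were added to that gene. Aph1a alone had a log2 change of -0.44 ± 0.07 (adjusted p = 0.00183 by edgeR) and with Gm15429 added one of -0.32 ± 0.07 (0.00773). Ppia alone had -0.11 and with its 17 closest pseudogenes 0.07 (adjusted p = 0.322 and 0.554). Cox7c went from -0.24 to -0.16 (0.218 and 0.343), and Rpl21, whose own change was 0.20, had 0.22 with 27 pseudogenes added (0.0811 and 0.0550).

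In the 5 tested pairs with the largest per-length shares, the copy held close to or above 50% of the pair. Mrpl23-ps1, a copy of a mitochondrial ribosomal protein gene, held 88.7% ± 0.873 of the pair in vehicle and 93.7% ± 1.67 in KU55933, without overlap. Rps12-ps3 held 88.6% ± 1.91 and 88.7% ± 1.38, and Rps23-ps1 67.0% ± 1.33 and 73.5% ± 2.91. Rpl10a-ps1 held 49.5% ± 2.79 and 62.2% ± 3.10, and Rpl28-ps1 49.1% ± 1.43 and 60.2% ± 2.91. Rps12-ps3, Rps23-ps1, Rpl10a-ps1 and Rpl28-ps1 are contained whole in a transcript of the parent, and Mrpl23-ps1 was 100% identical to its parent over the aligned part. Of their 5 parents, Rpl10a, as given above, Mrpl23 (log2 change -0.66, adjusted p = 0.0213 by edgeR), Rpl28 (-0.53, 0.0238) and Rps12 (-0.44, 0.0378) were lower in KU55933, while Rps23 (-0.25, 0.164) did not pass. Tpt1, the parent of Tpt1-ps3, did not pass either (-0.15, 0.236). Rps16-ps2, chosen after its values were seen, held 40.6% ± 1.92 and 39.6% ± 5.398, and it and Rps16 had close log2 changes of -0.51 and -0.44.

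Across the 153 families of named parents that were tested, the sums were higher for 16 and lower for 28, against a background of 7.28% higher and 14.9% lower over all genes and families, with a median log2 change of 0.03. For the 44 ribosomal protein families the sums were higher for 5 and lower for 13, with a median of -0.07, and the parents alone were higher for 4 and lower for 14, with a median of -0.14. All 79 cytosolic ribosomal protein genes were tested per gene, of which 6 were higher, 30 lower and 43 not past the threshold, with a median log2 change of -0.16, against 6.92% higher, 14.6% lower and a median of 0.01 over 15481 genes. With the GC and length offset, 0 family sums were higher and 7 lower by edgeR, and the count of higher sums was 0 without vehicle 3 or vehicle 4, 3 without vehicle 2, 6 without KU55933 1, 5 without KU55933 2 and 8 without KU55933 3. The count of lower sums was 18 without vehicle 2 or vehicle 4 and 17 without vehicle 3. The share of all genes called with the offset or with libraries left out is not given. These smaller counts cannot be told apart from fewer calls over all genes.

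Some pseudogenes switched between 0 and many counts within a single treatment group. Of the 101 processed pseudogenes that reached 100 counts in any library, 8 (7.92%) had 0 in one library and at least 100 in another of the same group, close to the 7.46% of protein-coding transcripts that did. Gm6361 and Gm6565, chosen after their values were seen, are of 435 and 438 bases, the shorter contained whole in the longer, and both are contained in a transcript of Ube2v2, a ubiquitin-conjugating enzyme variant. Gm6361 had 0, 243, 0 and 0 counts in vehicle and 0, 260, 235 and 0 in KU55933. Gm6565 had 333, 0, 221 and 229 counts in vehicle and 323, 0, 0 and 295 in KU55933.

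In each library one of these copies had all the counts and the other none, and their sum stayed between 221 and 333. Gm12918, which is contained in Rpl13 and was likewise singled out once its counts were known, stood at 2029, 1916, 0 and 0 counts in vehicle and at 592, 503, 997 and 1684 in KU55933. Rpl13 itself was at 89.4, 97.5, 209 and 215 CPM in the vehicle libraries, high where Gm12918 was at 0, and at 82.6, 68.6, 79.5 and 62.9 CPM in KU55933.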

How the data were processed

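Poly(A)-selected stranded RNA-seq libraries of hippocampus, 4 vehicle and 4 KU55933, were analysed. The deposited table gives each transcript an expected count (estimated count) as a whole number. The authors used Salmon 1.4.0 and build GRCm39, FastQC 0.11.9 and DESeq2 1.32.0, per the submitters' processing notes. Salmon's settings for reads shared by near-identical transcripts are not given in the sources used here.

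Transcripts were fitted with edgeR 4.0.16 in R 4.3.3 (filterByExpr, TMM scaling, robust quasi-likelihood test, 8 libraries, no covariates). CPM is scaled by TMM, and genes and family sums were fitted the same way. The family test used diffSpliceDGE, and the ratio used limma 3.58.1. Sequences came from GENCODE mouse release 21 (GRCm38), by transcript identifier, and matched 99.7% of transcripts. The closest coding transcript was found with BLAST 2.17.0, covering at least 50% of the pseudogene. Coordinates are those of that release, not of the authors' build. Per-length shares divide counts by transcript length.

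Named genes were ribosomal protein -ps pseudogenes past the threshold, up to 10 rises and 10 falls at a mean of at least 0 log2 CPM, the 6 most abundant, Rps7-ps3, Rpl14-ps1, Rpl15-ps3 and Rps13-ps2, their parents, and the 5 largest shares. Members, lists and tests were chosen with earlier results of these data known.

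On simulated counts with 200 transcripts changed 3-fold, the transcript fit recovered 52.5% with 8 unchanged ones called, the family test 11.5% with 49, the limma ratio 14.5% with 7, DESeq2 84% with 131, and family sums 92.5% of 53 genes with 2. With a GC trend added, the fit without an offset recovered 48.5% with 28 unchanged called, and with the offset 48.5% with 8. Replicate numbers are not described in the labels as an animal or a batch, and libraries of 1 number did not deviate together in every pair. No library pair was a duplicate (chi-square per degree of freedom 17.1 to 54.1). Alternatives were RLE scaling, other count filters, DESeq2 1.42.0, the replicate block, the GC and length offset, and leaving out libraries.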

Additional observations from a re-analysis of the deposited data

Results flagged for a closer look

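Of 42 groups of 4 libraries examined, 1 had a library far from the other 3. Rpl28-ps1 was at 34.6 CPM in vehicle 2, while the other vehicle libraries were at 28.1, 29.1 and 29.0 CPM. Chance flags about 1 in 20 such groups.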

How the results depend on the processing

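Of the 10 higher and 2 lower pseudogenes, the replicate block left 3 and 2, the GC and length offset 3 and 0, both together 0 and 0, and DESeq2 16 and 3. For ribosomal protein pseudogenes (5 higher, 0 lower) the higher count was 2 with the replicate block, 2 with the offset and 0 with both, and the lower count was 1 with no filter or with DESeq2. For the others (5 and 2) the higher count was 3 with a filter of 1 CPM, 1 with the block, 1 with the offset, 0 with both and 11 with DESeq2, and the lower count 0 with the offset, with or without the block. Without KU55933 1 and 2 together, an alternative added after the data were seen, 3 in all, 2 ribosomal protein and 1 other pseudogene were higher. Limma in place of the family test called 1 pair lower in place of 0, and with the added offset 0 family sums were higher and 7 lower. With single libraries left out, the higher counts ran from 4 to 9 in all, 2 to 4 for ribosomal protein and 2 to 6 for other pseudogenes, and the lower counts from 2 to 3, 0 to 1 and 2 to 2. With the offset as well they ran from 2 to 5 higher and 0 to 1 lower. Pairs ran from 3 to 5 higher and 0 to 1 lower, and family sums from 0 to 19 higher and 17 to 32 lower. The shares of all transcripts or genes called are not given for fits with libraries left out, the replicate block or another count filter. Nor are they given for family sums with the offset. A smaller count in these fits cannot be told apart from fewer calls over all transcripts or genes. Gm12918, not called, ran from -0.29 to 0.75 with single libraries left out, and was at -0.29 without vehicle 3, vehicle 4 or KU55933 4, and Rpl10a-ps1 ran from -0.02 to 0.25, and was at -0.02 without KU55933 4. The differences in share of counts kept their direction, from 0.0179 to 0.0229 percentage points for all pseudogenes. The replicate block changed the family sums to 22 higher and 27 lower. Replicate numbers correlated at 0.201, 0.0514, 0.0134 and 0.0417, and only libraries of number 1 correlated best with their own number. Causes were not tested. The 1458 pseudogenes under the count filter were not tested, and whether more depth would bring them above it was not tested.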
